A study of Homo sapiens with 10 samples.

Results

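The epidermal growth factor receptor EGFR, its partner receptors ERBB2 and ERBB3, the brakes ERRFI1, LRIG1, CBL and CBLB, and the adaptors GRB2 and SHC1 were followed probe by probe in 2 human head and neck cancer lines, HN5 and FaDu. The members were chosen as every probe annotated to 1 of these 9 genes. There were 21 such probes on each array type, under the same 21 identifiers, among 18665 named genes (27577 probes) in HN5 and 20046 named genes (30112 probes) in FaDu. Each line was transfected with the precursor of miR-7 or with miR-NC, a negative-control precursor, and RNA was taken at 24 h, so all cells had been through a transfection. HN5 was measured on 2 miR-7 and 2 miR-NC arrays (Illumina Human-6 v3), and FaDu on 6 arrays, 3 under each label (Illumina HumanHT-12 v4), each a biological replicate by its label. HN5 has been described as carrying an amplified EGFR gene and as sensitive to the EGFR inhibitor erlotinib, and FaDu as having moderate EGFR and being resistant. The question put by the design was how the mRNA of the receptor that miR-7 is known to repress, and of the genes that partner or restrain it, differed between precursors.

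EGFR is a receptor tyrosine kinase that pairs with itself or with another ErbB receptor once a ligand binds. ERBB2 has no known ligand and is the preferred partner, while ERBB3 has a weak kinase and passes the signal on to phosphoinositide 3-kinase. Activated EGFR recruits the adaptors GRB2 and SHC1, which lead to Ras, and the ubiquitin ligases CBL and CBLB, which send the receptor to the lysosome. ERRFI1 (MIG6) binds the EGFR kinase domain and blocks it, and LRIG1 is a transmembrane protein that lowers ErbB receptor levels. In squamous carcinomas of the head and neck EGFR is commonly overexpressed.

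A microRNA pairs with its target mRNAs chiefly through its seed, bases 2 to 8. The study gave no sequence for the precursor it transfected. Shown here is the annotated mature strand of human miR-7, with the seed in capitals, because the precursor labels separate the groups. It is given 5′ to 3′ from RefSeq (GRCh38.p14), where the same 24 bases are listed at MIR7-1 (chr9:83969811-83969834, minus strand) and at MIR7-3 (chr19:4770700-4770723, plus strand).
hsa-miR-7-5p: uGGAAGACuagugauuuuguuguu

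Values are log2 intensities, background-corrected and quantile-normalized apart for each line, and a log2 fold change is miR-7 minus miR-NC. A probe counted as detected on an array at a detection p under 0.01, and it was tested if all arrays of 1 or both groups detected it. Median scanner intensity was 114.5 to 158.5 per HN5 array and 114.4 to 148.9 per FaDu array, and the number of arrays limits the precision. Correlations between FaDu arrays were 0.975 to 0.996. HN5 miR-7 replicate 2 stood apart, at 0.904 to 0.923 with the other HN5 arrays, which correlated at 0.970 to 0.986 with each other. Of 10 squamous epithelial markers, 7 had a named probe and all 7 were detected in both lines. Of the other cell types, COL1A1, COL3A1, LUM, CD68 and PECAM1 were detected in HN5 and CD68, CDH5 and VWF in FaDu, out of 13 such genes with a probe. The leukocyte markers other than CD68 that had a probe were not detected in either line. The summed linear level of the leukocyte list was 8394 to 9100 on HN5 miR-7 arrays and 5439 to 5717 on HN5 miR-NC arrays, and 2430 to 2493 on FaDu arrays labelled miR-7 and 2692 to 2885 on those labelled miR-NC. That of the endothelial list was 192.4 to 211 with miR-7 and 180.4 to 183 with miR-NC in HN5, and 173.5 to 179.7 and 114.5 to 121.7 by the same labels in FaDu. That of the squamous list was 102600 to 112800 with miR-7 and 114800 to 120100 with miR-NC in HN5 and overlapped in FaDu, and that of the fibroblast list overlapped in both lines. Each sum takes in all probes of its list, including any that were not detected, so the endothelial sums hold background signal as well. The part of these markers in the results was not tested.

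In HN5, the largest log2 fold changes among these genes were at the brightest EGFR probe, which read 3.18-fold lower with miR-7, and at both CBL probes, also lower. Of the 17 member probes tested in HN5, 0 passed an adjusted p of 0.05 in the limma fit per probe, where 0% of all 14428 probes did. In FaDu, EGFR, CBL, CBLB, ERBB2 and ERRFI1 were higher on the arrays labelled miR-7, and ERBB3 and LRIG1 lower. Each passed an adjusted p of 0.05 at 1 or more probes. By probes, 7 of 15 were higher and 2 of 15 lower, where 17.6% and 18.9% of all 16277 probes were. The calls of ERBB2, ERBB3, ERRFI1 and LRIG1 each ended under 1 or more alternatives. The FaDu direction, which follows the sample labels, runs against the one given for EGFR in the study. FaDu arrays are therefore called by their labels throughout. The adaptors GRB2 and SHC1 did not pass in either line.

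EGFR was first followed through its brightest probe, ILMN_1798975, which is annotated to NM_005228, the full-length receptor. In HN5 it read 12.11 and 12.05 on the miR-7 arrays, against 13.81 and 13.68 on the miR-NC arrays. Both miR-7 arrays lay far below both miR-NC arrays, and replicates of 1 precursor were close together. The log2 fold change was -1.67 (standard error 0.18, 95% interval -2.13 to -1.21, n = 2 arrays per precursor, limma adjusted p = 0.0789 over 14428 probes). The probe ranked 39 of 14428 by p, and 308 probes, itself included, had a log2 fold change at least as low. Within each array it stood at percentiles 96.2 and 96.0 of all probes with miR-7, against 99.1 and 98.9 with miR-NC.

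Whether EGFR passed the threshold in HN5 depended on the processing. The smallest adjusted p of any HN5 probe was 0.0768. With 1 probe per gene the same log2 fold change had an adjusted p of 0.0492, and with only the probes detected on every array it was 0.0180. It was 0.0463 without background correction (log2 fold change -1.65) and 0.0464 on the authors' log2 values (-1.71), while the methods' t-test gave 0.420. Without miR-7 replicate 2, the array that stood apart, the log2 fold change was -1.62 (adjusted p = 0.00969), in a fit that leaves 1 miR-7 array, whose spread is assumed to be that of the miR-NC arrays. Without miR-NC replicate 1 the log2 fold change was -1.65 (adjusted p = 0.969), and without the other miR-NC array -1.72 (adjusted p = 0.478). The direction was the same throughout, and the size stayed between -1.72 and -1.55.

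**Figure D1:**
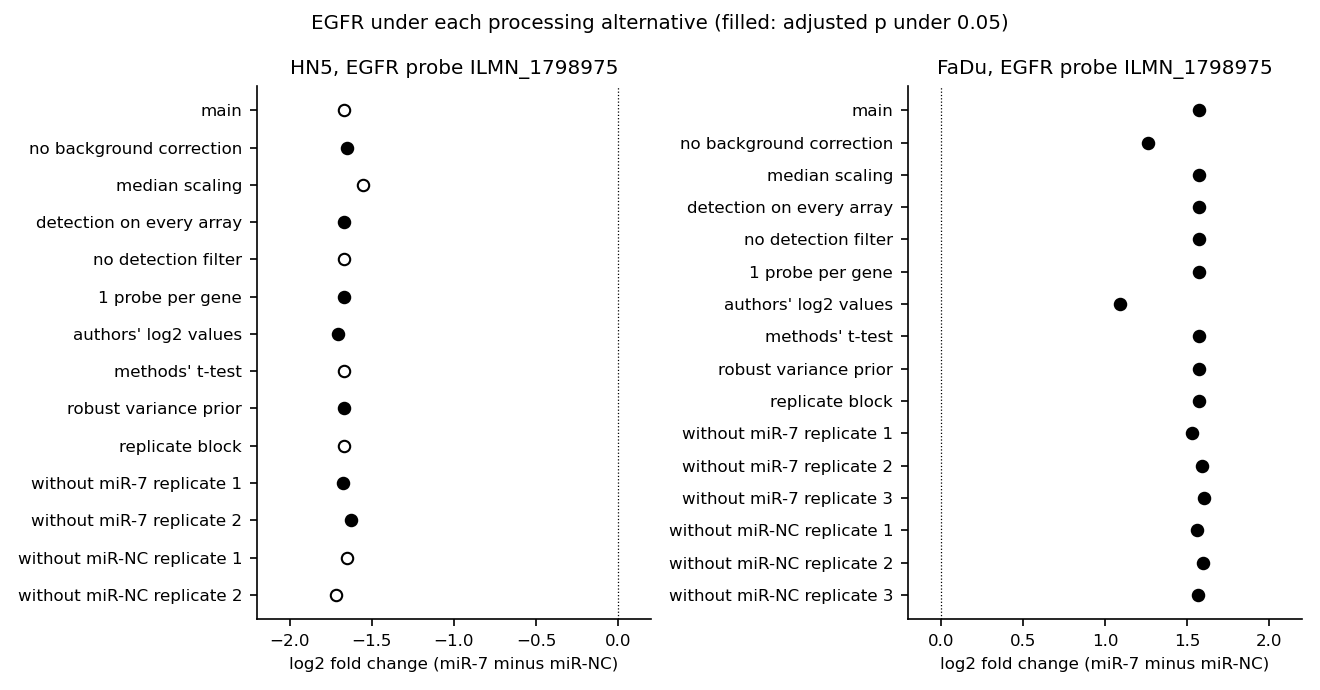
Log2 fold change (x axis, miR-7 minus miR-NC) of EGFR probe ILMN_1798975 in HN5 (left) and FaDu as labelled (right) under each way of processing the arrays (y axis); filled points passed an adjusted p under 0.05. The HN5 values lie between -1.72 and -1.55 and cross the threshold both ways, while the FaDu values lie between 1.09 and 1.60 and all are filled.

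In FaDu the same probe read 9.61, 9.48 and 9.46 on the arrays labelled miR-7, against 7.91, 7.98 and 7.94 on those labelled miR-NC. The 3 arrays labelled miR-7 all lay well above the other 3. The log2 fold change was 1.57 (standard error 0.07, 95% interval 1.40 to 1.74, n = 3 arrays per label, limma adjusted p = 5.4e-06 over 16277 probes), a 2.98-fold difference. By the labels 97 probes, itself included, had a log2 fold change at least as high. The probe stood at percentiles 90.6, 90.0 and 89.8 of all probes on the arrays labelled miR-7, against 81.5, 82.0 and 81.7 on those labelled miR-NC, lower in each case than on any HN5 array. The lines were run on different array types and normalized apart, so this order of lines is a description. These are bulk cultures, in which fewer cells with the transcript and less of it per cell cannot be told apart.

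The other 3 EGFR probes are annotated to NM_201282, NM_201283 or NM_201284, shorter transcripts of the gene that encode secreted forms of the receptor without the kinase. ILMN_1696521, annotated to NM_201283 on the HN5 array and to NM_201282 on the FaDu array, was bright in HN5. It read 11.29 and 11.70 with miR-7, against 12.15 and 11.86 with miR-NC, and the groups did not overlap. Its HN5 log2 fold change was -0.50 (standard error 0.23, adjusted p = 0.452), and -0.30 without miR-7 replicate 1. In FaDu it read 7.53, 7.78 and 7.50 on arrays labelled miR-7, against 7.22, 7.02 and 7.22 on those labelled miR-NC, a log2 fold change of 0.45 (standard error 0.10, adjusted p = 0.00962). That FaDu call ended under the methods' t-test (adjusted p = 0.0553).

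The distance between these brighter EGFR probes, taken within each array, differed between the groups. In HN5 the NM_005228 probe stood 0.82 and 0.34 log2 units above ILMN_1696521 with miR-7, and 1.66 and 1.83 above it with miR-NC. In FaDu it stood 2.08, 1.70 and 1.96 above it on the arrays labelled miR-7, and 0.68, 0.96 and 0.72 above it on those labelled miR-NC. In both lines the groups did not overlap in this distance, on which no test was run. A distance within an array shows unequal change at these probes and does not say how much of each transcript was present.

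ILMN_1728858, annotated to NM_201284, read 8.11 and 8.57 with miR-7 and 8.67 and 8.42 with miR-NC in HN5, and the groups overlapped (log2 fold change -0.21, standard error 0.24, adjusted p = 0.703). In FaDu it was near background, detected on all 3 arrays under the miR-7 label and on 1 under the miR-NC label, at a log2 fold change of 0.18 (standard error 0.12, adjusted p = 0.301). ILMN_1755535, annotated to NM_201282, was dim. In HN5 it was not detected on either miR-7 array, where it read 6.05 and 5.61, and was detected on both miR-NC arrays, at 6.39 and 6.65. Set against the lowest detected signal, which serves as a bound for a group without detection, it was at least 1.06-fold lower with miR-7 (adjusted p = 0.352, and 0.0304 without miR-7 replicate 1). It was not detected on any FaDu array and was not tested there.

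**Figure D2:**
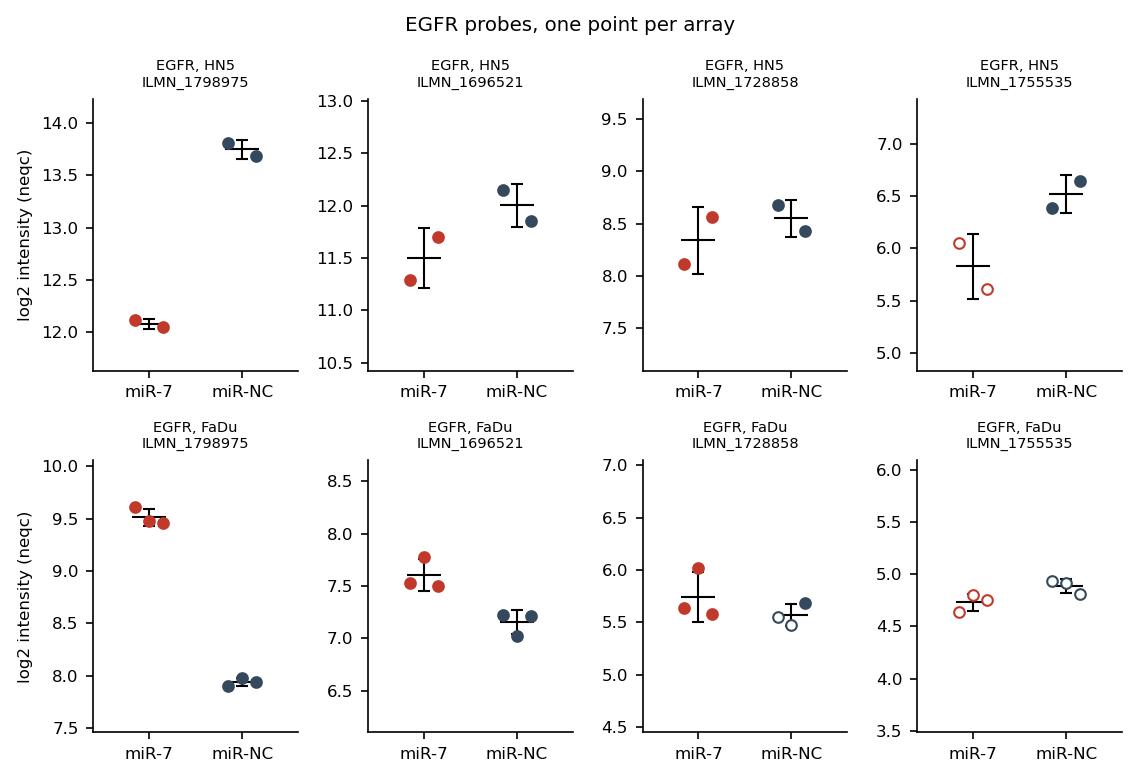
Log2 intensity (y axis) of the 4 EGFR probes on each array in HN5 (top row) and FaDu (bottom row, as labelled), miR-7 left and miR-NC right; bars are mean ± SD, and open points are arrays on which the probe was not detected. At ILMN_1798975 the groups are far apart in both lines and in opposite directions, and at ILMN_1728858 they overlap.

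Of the partner receptors, ERBB2 had 1 probe that could be tested, ILMN_2352131. In HN5 it read 10.76 and 10.87 with miR-7 and 11.05 and 10.75 with miR-NC, so the groups overlapped, and the log2 fold change was -0.09 (standard error 0.20, 95% interval -0.60 to 0.43, adjusted p = 0.863). In FaDu it read 9.57, 9.40 and 9.42 on arrays labelled miR-7, against 9.19, 9.0 and 9.19 on those labelled miR-NC, with no overlap. That log2 fold change was 0.34 (standard error 0.09, adjusted p = 0.0176). The call ended without miR-NC replicate 2 (0.27, adjusted p = 0.0520), without miR-7 replicate 1 (0.28, adjusted p = 0.0652), with no detection filter (adjusted p = 0.0529) and under the methods' t-test (0.0565). The other ERBB2 probes, ILMN_1728761 and ILMN_1717902, were not detected on any array of either line.

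ERBB3 was measured by 2 testable probes. ILMN_1751346 (NM_001982) read 9.0 and 8.71 in HN5 with miR-7, against 8.04 and 8.54 with miR-NC, without overlap. Its HN5 log2 fold change was 0.57 (standard error 0.25, adjusted p = 0.438), and 0.31 without miR-NC replicate 1. In FaDu the probe read 8.36, 8.41 and 8.22 on arrays labelled miR-7, against 8.52, 8.69 and 8.62 on those labelled miR-NC, a log2 fold change of -0.28 (standard error 0.08, adjusted p = 0.0316). The small FaDu difference lost its call without any 1 of miR-7 replicate 1, miR-7 replicate 3, miR-NC replicate 2 and miR-NC replicate 3 (adjusted p 0.0696 to 0.109), with no detection filter (0.0866) and under the methods' t-test (0.0680). The second probe, ILMN_1737993, annotated to the short variant NM_001005915, had overlapping groups in both lines, at log2 fold changes of 0.42 (adjusted p = 0.599) in HN5 and 0.09 (adjusted p = 0.551) in FaDu. With 1 array left out these ran from 0.059 (without miR-NC replicate 1) to 0.78 (without miR-NC replicate 2) in HN5 and from 0.014 (without miR-NC replicate 3) to 0.22 (without miR-NC replicate 2) in FaDu. ILMN_2397602 was not detected on any array. ERBB4, the remaining ErbB receptor, had 1 probe, which was detected on 2 of the HN5 arrays and on 0 of the FaDu arrays and was not tested.

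Of the brakes, CBL showed the largest differences. Its probe ILMN_1716080 read 7.26 and 7.48 in HN5 with miR-7, against 8.07 and 8.23 with miR-NC, and the groups did not overlap. The log2 fold change was -0.78 (standard error 0.19, 95% interval -1.27 to -0.28, adjusted p = 0.245). In FaDu the same probe read 7.79, 7.66 and 7.48 on arrays labelled miR-7, against 6.51, 6.82 and 6.72 on those labelled miR-NC. The FaDu log2 fold change was 0.96 (standard error 0.11, adjusted p = 0.000347), and the call held under every alternative run, at a size between 0.40 and 1.05. The lowest size came from the authors' log2 values, on which HN5 stood at -0.37.

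The second CBL probe, ILMN_2181968, is annotated to the same transcript, NM_005188. In HN5 it read 6.57 and 5.68 with miR-7, against 7.81 and 7.98 with miR-NC, and it was detected on 1 of the 2 miR-7 arrays, the exception being the array that stood apart. Its HN5 log2 fold change was -1.77 (standard error 0.33, adjusted p = 0.164), -1.35 without miR-7 replicate 2 (adjusted p = 0.0213) and -2.21 without miR-7 replicate 1 (adjusted p = 4.1e-05), fits that leave 1 miR-7 array. A robust variance prior gave an adjusted p of 0.0407. The size was -0.94 without background correction and -0.61 on the authors' log2 values. In FaDu it read 8.41, 8.26 and 8.14 on arrays labelled miR-7, against 7.49, 7.65 and 7.72 on those labelled miR-NC, a log2 fold change of 0.65 (standard error 0.10, adjusted p = 0.00138). Both CBL probes thus lay on the same side within each line, with sizes in the reverse order.

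CBLB, the close relative of CBL, had 1 probe, ILMN_1685580. It read 10.53 and 10.51 in HN5 with miR-7, against 10.93 and 10.98 with miR-NC, so that arrays of 1 precursor nearly coincided and the groups were apart. The HN5 log2 fold change was -0.44 (standard error 0.18, adjusted p = 0.403). In FaDu it read 7.10, 7.20 and 7.05 on arrays labelled miR-7, against 6.67, 6.46 and 6.73 on those labelled miR-NC. That gave 0.50 (standard error 0.09, adjusted p = 0.00395), and 0.18 on the authors' log2 values with the call kept.

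ERRFI1 showed no difference in HN5 that this design could detect. Its probe ILMN_1665510 read 10.66 and 11.12 with miR-7 and 10.97 and 10.71 with miR-NC, a log2 fold change of 0.05 (standard error 0.24, 95% interval -0.56 to 0.66, adjusted p = 0.939). In FaDu it read 8.92, 8.83 and 8.83 on arrays labelled miR-7, against 8.57, 8.70 and 8.60 on those labelled miR-NC, and the log2 fold change was 0.24 (standard error 0.07, adjusted p = 0.0359). That call ended when any 1 of the FaDu arrays other than miR-NC replicate 2 was left out (adjusted p 0.0720 to 0.118), with no detection filter (0.0910) and with arrays blocked by replicate number (0.0704).

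LRIG1 was lower on the FaDu arrays labelled miR-7. Its probe ILMN_2128795 read 6.01, 5.92 and 5.83 there, against 6.22, 6.44 and 6.35 on arrays labelled miR-NC, without overlap. The log2 fold change was -0.42 (standard error 0.09, adjusted p = 0.00709), and it was -0.11 on the authors' log2 values, where the call ended (adjusted p = 0.0632). In HN5 this probe read 7.84 and 8.60 with miR-7, on either side of the miR-NC arrays at 8.38 and 8.24 (log2 fold change -0.09, standard error 0.30, adjusted p = 0.908). The second LRIG1 probe, ILMN_1707342, stood at -0.35 in HN5 (log2 fold change, standard error 0.30, adjusted p = 0.620) and was detected on 1 FaDu array, too few for a test.

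**Figure D3:**
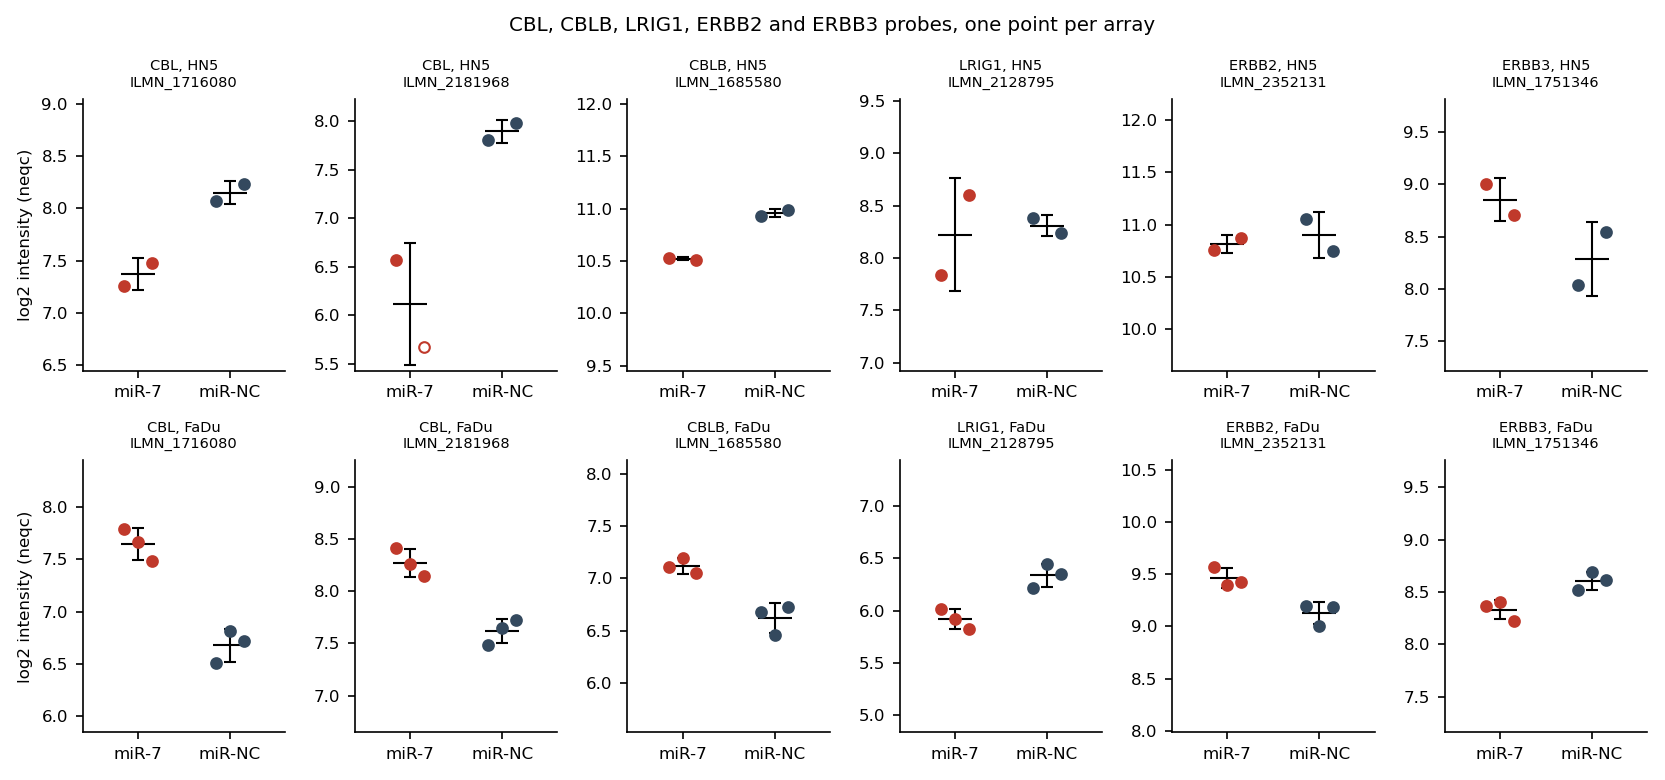
Log2 intensity (y axis) of probes of CBL, CBLB, LRIG1, ERBB2 and ERBB3 on each array in HN5 (top row) and FaDu (bottom row, as labelled), miR-7 left and miR-NC right; bars are mean ± SD, and the open point is an array on which the probe was not detected. CBL and CBLB are lower with miR-7 in HN5 and higher on FaDu arrays labelled miR-7, and the LRIG1 groups overlap in HN5 but not in FaDu.

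The adaptors did not pass the test in either line. GRB2 had 2 probes, ILMN_1748797 and ILMN_1742521, with FaDu log2 fold changes of 0.10 (95% interval -0.06 to 0.27, adjusted p = 0.295) and 0.14 (95% interval -0.13 to 0.40, adjusted p = 0.387). Their HN5 values were -0.10 (95% interval -0.64 to 0.44) and 0.11 (95% interval -0.59 to 0.82), with overlapping groups at both. The brightest SHC1 probe, ILMN_1721022, read 12.63 and 12.59 in HN5 with miR-7, against 13.18 and 12.80 with miR-NC, without overlap (log2 fold change -0.38, standard error 0.21, adjusted p = 0.499). With 1 miR-NC array left out it was -0.20 (replicate 1) or -0.57 (replicate 2). In FaDu the groups overlapped, at 0.03 (95% interval -0.20 to 0.26, adjusted p = 0.843). ILMN_1812570 gave -0.09 in HN5 and 0.11 in FaDu, neither past the threshold. ILMN_1701967 was detected on 1 HN5 array and on 0 FaDu arrays and was not tested.

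Counted together, 17 of the 21 member probes were tested in HN5 and 15 in FaDu, covering all 9 genes in each line. In HN5, at an adjusted p under 0.05, 0 of 17 were lower and 0 were higher, where 0% of 14428 probes passed in either direction. At an unadjusted p under 0.05 the limma fit had 4 of 17 member probes and 1829 of all probes. With a robust variance prior 2 of 17 member probes were lower at an adjusted p under 0.05, where 0.762% of all probes were, and by the methods' t-test 0 members and 0% of all probes were. At the thresholds the study used (1.5-fold or more, with unadjusted p under 0.05) 4 of 17 were lower in HN5, 2 probes each of EGFR and CBL, where 4.74% of all probes were, and 0 were higher, where 5.62% were. Of these, EGFR ILMN_1755535 was detected on 0 miR-7 arrays and was tested only through the miR-NC group. Its bound of at least 1.06-fold falls short of the 1.5-fold limit. CBL ILMN_2181968, detected on 1 of the 2 miR-7 arrays, was also tested through the miR-NC group. The median log2 fold change was -0.21 over the members and 0.03 over all probes tested, with 13 members below 0 and 4 above.

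At an adjusted p under 0.05, 7 of 15 member probes were higher in FaDu under the miR-7 label, where 17.6% of 16277 probes were. They were 2 probes each of EGFR and CBL and 1 each of CBLB, ERBB2 and ERRFI1. A further 2 of 15, of ERBB3 and LRIG1, were lower, where 18.9% of all probes were. At the p and fold limits of the methods 3 of 15 were higher, the brightest EGFR probe and both CBL probes, where 6.64% of all probes were, and 0 were lower, where 4.83% were. The median was 0.18 over the members and -0.02 over all probes tested. Probes of 1 gene share their transcript, so these counts are not counts of independent genes.

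**Figure D4:**
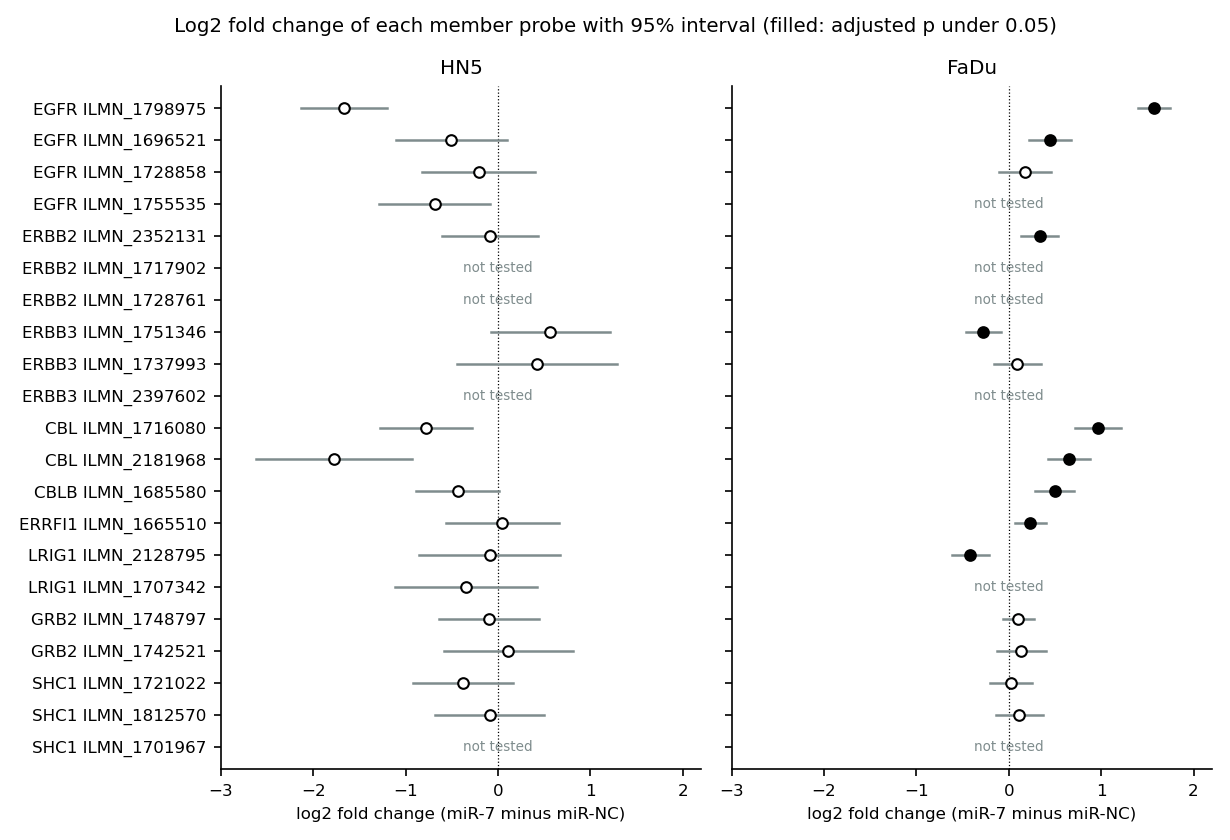
Log2 fold change (x axis, miR-7 minus miR-NC) with its 95% interval for the 21 member probes in HN5 (left) and FaDu as labelled (right); filled points passed an adjusted p under 0.05, and probes without enough detection are marked as not tested. EGFR ILMN_1798975 stands at -1.67 in HN5 and 1.57 in FaDu, and the GRB2 and SHC1 intervals cross 0 in both lines.

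The lines were then set against each other at the 15 member probes tested in both. By the labels, 4 of 15 had log2 fold changes that differed between HN5 and FaDu at an adjusted p under 0.05, where 14.2% of 12433 shared probes did. At the brightest EGFR probe HN5 minus FaDu was -3.24 (standard error 0.20, adjusted p = 0.000274). At the CBL probes it was -1.74 (standard error 0.22, adjusted p = 0.00208) for ILMN_1716080 and -2.43 (standard error 0.35, adjusted p = 0.00843) for ILMN_2181968, and at CBLB -0.93 (standard error 0.20, adjusted p = 0.0189). The second EGFR probe, at -0.95, missed the threshold (adjusted p = 0.0512), as did ERBB3 ILMN_1751346 at 0.84 (adjusted p = 0.0893).

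With the FaDu sign turned, 0 of 15 member probes differed between the lines, where 0.145% of the shared probes did. The EGFR difference was then -0.09 (standard error 0.20, adjusted p = 0.870), that of ILMN_1696521 -0.06, that of CBL ILMN_1716080 0.19 and that of CBLB 0.06. The second CBL probe stood at -1.12 (adjusted p = 0.425), and LRIG1 ILMN_2128795 at -0.51 (adjusted p = 0.581). A p that misses the threshold does not show that the lines responded alike, and the arrays themselves do not settle which sign is right.

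**Figure D5:**
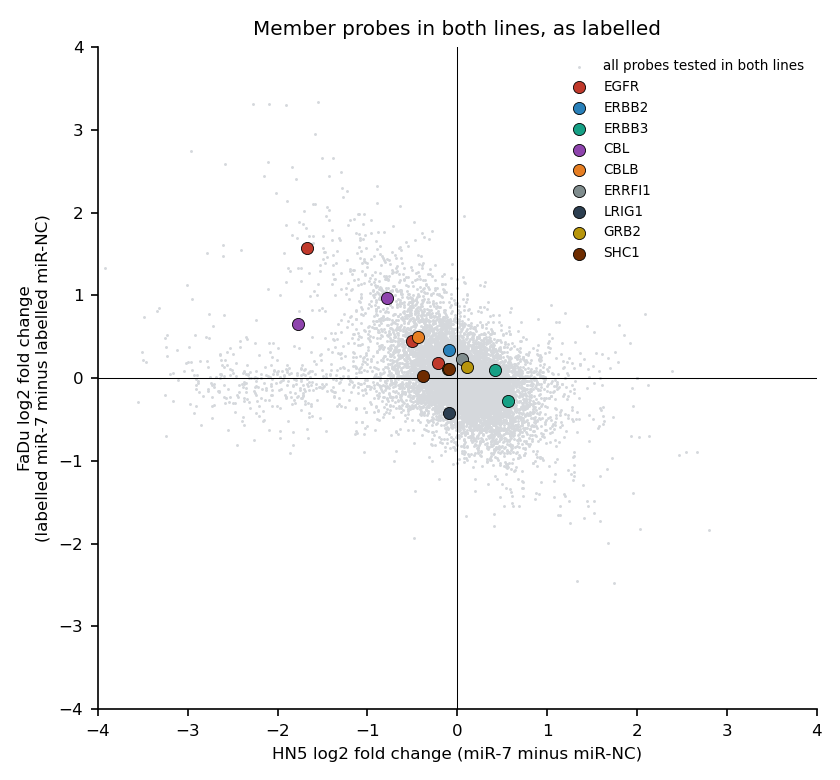
Log2 fold change in HN5 (x axis) against that in FaDu as labelled (y axis) for the 15 member probes tested in both lines (coloured by gene), over all 12433 probes tested in both (grey). EGFR and CBL lie at the upper left, lower with miR-7 in HN5 and higher on FaDu arrays labelled miR-7.

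The genes whose pattern was most like that of the brightest EGFR probe were found by Pearson correlation over the 10 arrays, with values centred within each line, among the 12433 probes tested in both lines. The top 5 were SNAP29 (r = 0.997), AGK (0.995), SYK (0.994), TMEM254 (0.993) and PRMT2 (0.993). SNAP29 had log2 fold changes of -1.90 in HN5 and 1.84 in FaDu, and SYK had -0.69 in HN5 and 0.77 in FaDu. Of the members, CBL ILMN_1716080 (0.963) and CBLB (0.943) came closest to EGFR, ahead of its own second probe (0.852), and ERBB3 ILMN_1751346 ran against it (-0.787). The arrays share their precursor labels and their normalization, so these values are a description.

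Other genes of the pathway were counted in 2 lists. The first held ERBB4 and further brakes and regulators of receptor turnover, 30 genes in all, of which 25 were tested in HN5 and 23 in FaDu. In HN5, 0 of these passed an adjusted p of 0.05 in the limma fit or under the methods' t-test, where 0% of all 14428 probes did. Of the list's genes 0 had an unadjusted limma p under 0.05, against 1829 of all 14428 probes. The list's median log2 fold change in HN5 was -0.03. In FaDu 6 genes were lower and 5 higher under the miR-7 label, by 6 and 5 of the list's 30 probes tested, where 18.9% of all probes were lower and 17.6% higher. The list's median was 0.03, against -0.02 over all probes. RNF41, the ubiquitin ligase that targets ERBB3, had the smallest p of the list in FaDu. It averaged 7.44 ± 0.09 on arrays labelled miR-7 and 6.05 ± 0.08 on those labelled miR-NC (SD, n = 3 each; log2 fold change 1.39, adjusted p = 1.4e-05), and its HN5 log2 fold change was -0.39 (adjusted p = 0.487). SPRY4, a feedback inhibitor of receptor signaling to ERK, was detected in FaDu on 0 of the 3 arrays labelled miR-7 and on all 3 labelled miR-NC. Against the lowest detected signal it was at least 1.27-fold lower under the miR-7 label (adjusted p = 0.00194), and its HN5 log2 fold change was -0.68 (adjusted p = 0.419). HGS and EPS15, which sort ubiquitinated receptors at endosomes and the cell surface, were higher in FaDu at 0.37 (adjusted p = 0.00364) and 0.40 (adjusted p = 0.00931), with HN5 values of -0.12 at both. The close relatives CBLC and LRIG2 did not pass in either line, and LRIG3 was tested in HN5 only (-0.38, adjusted p = 0.502).

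The second list held 30 further adaptors and members of the relay between Ras and ERK, of which 17 genes were tested in each line. In HN5 0 passed an adjusted p of 0.05 by either test, where 0% of all 14428 probes did. At an unadjusted limma p under 0.05 there were 0 as well, against 1829 of all 14428 probes. The list's HN5 median was 0.06. In FaDu, at an adjusted p under 0.05, 4 genes were lower and 4 higher under the miR-7 label, by 4 and 4 of the 24 probes tested, where 18.9% of all probes were lower and 17.6% higher. The list's median was -0.03. MAP2K1, the kinase MEK1 that activates ERK, averaged 9.94 ± 0.02 on FaDu arrays labelled miR-7 and 10.67 ± 0.03 on those labelled miR-NC (SD, n = 3 each; log2 fold change -0.73, adjusted p = 0.00011), and it stood at 0.32 in HN5 (adjusted p = 0.544). VAV2 had 0.46 in FaDu (adjusted p = 0.00259) and -0.11 in HN5 (adjusted p = 0.882). PLCG1, the phospholipase that binds activated receptors, had -0.45 in FaDu (adjusted p = 0.00382) at 1 probe. At its other probe it had -0.05, which did not pass. GAB2, a docking protein for phosphoinositide 3-kinase, had 0.50 in FaDu (adjusted p = 0.0196), where it was detected on all 3 miR-7-labelled arrays and on 1 of the others, and was not tested in HN5.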

How the data were processed

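RNA was hybridised to Illumina BeadChips (4 arrays for HN5, 6 for FaDu). The authors deposited scanner intensities with neither background correction nor normalization, each with a detection value that holds 1 minus p. The authors also deposited log2 values, made with a variance-stabilizing transformation in R 2.11.0 and quantile normalization, whose cells follow the probe order of the intensity tables rather than the identifiers beside them; they were realigned and used as an alternative. Intensities were processed within each line with neqc (offset 16) of limma 3.58.1 (R 4.3.3). Probes detected at p under 0.01 on every array of 1 group or more were fitted with lmFit and eBayes, with Benjamini-Hochberg adjustment over all of them, named or not. The difference between lines used both moderated standard errors. Genes came from the array annotation, updated through RefSeq. All 9 genes were described at every probe, with up to 4 genes per list and line past an adjusted p of 0.05 and the 5 genes most like EGFR. The members, lists and tests were chosen with earlier results of these data known. Same-numbered arrays did not deviate together, so no block was used. The procedure was tested on simulated data. There every probe of a line had the same spread and no array stood apart, so recovery on the real arrays was not measured. Plots used Matplotlib 3.10.9. Microarray probe sequences were not analysed here.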

Additional observations from a re-analysis of the deposited data

Results flagged for a closer look

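By the labels, 4 member probes had log2 fold changes that differed between the lines when the difference itself was tested over all shared probes: HN5 minus FaDu was -3.24 at EGFR ILMN_1798975, -1.74 at CBL ILMN_1716080, -2.43 at CBL ILMN_2181968 and -0.93 at CBLB ILMN_1685580. None of these passed with the FaDu sign turned, where the same differences were -0.09, 0.19, -1.12 and 0.06. Of these, CBL ILMN_2181968 was the probe that was not detected on HN5 miR-7 replicate 2.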

How the results depend on the processing

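For EGFR ILMN_1798975 in HN5 the log2 fold change kept its sign under all 13 alternatives. With all HN5 arrays kept, it passed an adjusted p of 0.05 without background correction (-1.65) and with detection on every array (-1.67). It also passed with 1 probe per gene (-1.67), on the authors' log2 values (-1.71) and with a robust variance prior (-1.67). With single arrays left out it ran from -1.72 to -1.62. The count of HN5 member probes lower at an adjusted p under 0.05 was 1 without background correction, with detection on every array, with 1 probe per gene and on the authors' values (where 0.0485% to 0.431% of all probes were lower), 2 with a robust prior (0.762%), and 0 to 3 with an array left out (0% to 8.25%, both highest without miR-7 replicate 1). At the study's thresholds 2 member probes were lower and 0 higher without background correction or with detection on every array. The same held with 1 probe per gene, on the authors' values and with the methods' t-test. Over these settings 2.25% to 4.43% of all probes were lower and 2.19% to 6.01% higher. Each HN5 fit with an array left out leaves 1 array in a group.

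The FaDu count of lower member probes was 1 with no detection filter (where 4.62% of all probes were lower), on the authors' values (20.2%) and with the methods' t-test (12.5%), and 1 to 2 with an array left out (13.3% to 16.2%). The count of higher ones was 5 with no detection filter (4.67% of all probes), with 1 probe per gene (2003 of 9997) and with the t-test (12.8%), and 5 to 6 with an array left out (14.0% without miR-7 replicate 1, which gave the 5). At the study's thresholds 1 FaDu member probe was higher without background correction (3.35% of all probes) and on the authors' values (2.38%). In these settings 0 were lower, where 1.7% and 1.08% of all probes were. EGFR ILMN_1798975, both CBL probes and CBLB passed in FaDu under every alternative run. The number of members that differed between lines was 4 without background correction, for which no share over all probes is given here. It was 0 with the FaDu sign turned, where 0.145% of the shared probes differed.

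A replicate block (paired by replicate number) gave an adjusted p of 0.170 for EGFR in HN5 and 0.00023 in FaDu. It ended 1 FaDu call, ERRFI1 (adjusted p = 0.0704), leaving 6 member probes higher, where 16.6% of all probes were. In HN5 0 members passed with the block, where 0% of all probes did. Same-numbered arrays had correlated deviations of 0.001 in HN5 and -0.03 to 0.05 in FaDu, where not every array correlated best with its own number.

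Values that changed sign did so with 1 array left out, and none had passed. With single HN5 arrays left out, EGFR ILMN_1728858 ran from -0.44 to 0.019, ERBB2 ILMN_2352131 from -0.24 to 0.071, ERRFI1 from -0.18 to 0.28, GRB2 ILMN_1742521 from -0.22 to 0.45, GRB2 ILMN_1748797 from -0.27 to 0.075, LRIG1 ILMN_1707342 from -0.71 to 0.015, LRIG1 ILMN_2128795 from -0.47 to 0.29 and SHC1 ILMN_1812570 from -0.30 to 0.12. In FaDu SHC1 ILMN_1721022 ran from -0.045 to 0.097. Without HN5 miR-7 replicate 1 the median of all probes was 0.13, against 0.03 with all arrays. Why these values and calls moved was not tested. The dim HN5 probes ILMN_1755535 and ILMN_2181968 limit what can be read of their sizes.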
